A study of Homo sapiens and Mus musculus with 213 samples.

Results

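In HEK293T cells, 10 genes were read as RNA in one line and hardly at all in another after the MYC promoter had lost its G-quadruplex (G4), a stacked fold of guanine-rich DNA. The genes were chosen from their RNA-seq values: each was near-silent in every library of MYC WT or of MYC MUT and clearly expressed in every library of the other line. They are 10 of the 58336 gene identifiers listed. ASTN1, UNC80, STAC, UGT2B4, VAT1L, SYNDIG1 and ANOS1 were expressed in MYC MUT, and CDO1, CXCL12 and NXF3 in MYC WT. Since the values of MYC WT and MYC MUT chose the genes, that contrast is described for them without a test.

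HEK293T is a human embryonic kidney line. MYC WT was unedited, MYC MUT carried mutations in the G-runs of the MYC promoter G4, and in SWP that G4 motif was replaced by a different G4-forming motif. The edited lines came from genome editing and were homozygous clones, so their values also carry whatever else a clone carried, and the number of clones behind the libraries is not given in the sources used here. Each line had 3 RNA-seq libraries, 9 of the 213 samples of the series. The labels number them as biological replicates without saying that they were separate cultures, so p-values measure the spread between these libraries, which may be technical. The column headers of MYC WT carried a sequencing pool tag that those of the edited lines lacked. Whether the lines were sequenced in different pools is not stated, so a pool effect and editing cannot be told apart in comparisons with MYC WT. The libraries held 65024354 to 98497026 reads on genes. MYC itself had 20020.3, 28396 and 21580.1 normalized counts in MYC WT, 10693, 11176 and 12399.8 in MYC MUT and 14480.1, 24743 and 25245 in SWP. Every MYC MUT library was below all others (log2 fold change -1.02 against MYC WT, SE 0.19, limma adjusted p = 0.00182), and SWP overlapped MYC WT (log2 fold change -0.15, SE 0.19, limma adjusted p = 0.712). The 7 genes listed as HEK293T markers all had a mean of at least 10 normalized counts. All 3 neuron markers read below did too, so this does not tell cell types apart. The HEK293T markers were not all level between lines. KRT8 had 462 ± 54.8, 782 ± 24.9 and 190 ± 17.4 in MYC WT, MYC MUT and SWP, and VIM 58969 ± 4826, 57849 ± 5431 and 53004 ± 2028 (SD, n = 3).

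The 10 genes belong to unrelated families. ASTN1 and SYNDIG1 are neuronal membrane proteins, the first an adhesion protein of migrating neurons and the second a partner of AMPA-type glutamate receptors. UNC80 is a subunit of the sodium leak channel complex around NALCN, and STAC is an adaptor that binds L-type calcium channels. ANOS1 encodes anosmin, a secreted matrix protein needed for the migration of olfactory and gonadotropin-releasing hormone neurons. UGT2B4 is a liver enzyme that couples glucuronic acid to bile acids and steroids, and VAT1L is related to the quinone oxidoreductases. CDO1 starts the breakdown of cysteine towards taurine, CXCL12 is the chemokine that binds CXCR4, and NXF3 belongs to the nuclear RNA export factors. Genes restricted to a tissue are commonly kept silent elsewhere by chromatin, and CpG dinucleotides of a promoter are the sites that DNA methylation can mark.

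The members lay on 9 chromosomes, with ANOS1 and NXF3 both on chromosome X. Besides the 4 genes whose promoters are printed, the annotation (hg38, GENCODE) places ASTN1 at chr1:176857302-177164973 (minus strand), UNC80 at chr2:209771832-209999300 (plus strand), STAC at chr3:36380503-36548007 (plus strand), UGT2B4 at chr4:69480165-69526014 (minus strand), SYNDIG1 at chr20:24469629-24666616 (plus strand) and CXCL12 at chr10:44370165-44386493 (minus strand). RefSeq start-site windows (GRCh38.p14) were found for 8 of the 10. The 250 bases before the start are printed 5′ to 3′ for 4 genes, with CpG dinucleotides in capitals, to show how far their CpG content differs. ANOS1 (chrX:8732138-8732387, minus strand) and VAT1L (chr16:77788314-77788563, plus strand) were expressed in MYC MUT. CDO1 (chr5:115816660-115816909, minus strand) and NXF3 (chrX:103093144-103093393, minus strand) were near-silent there and carried reads in SWP.
ANOS1: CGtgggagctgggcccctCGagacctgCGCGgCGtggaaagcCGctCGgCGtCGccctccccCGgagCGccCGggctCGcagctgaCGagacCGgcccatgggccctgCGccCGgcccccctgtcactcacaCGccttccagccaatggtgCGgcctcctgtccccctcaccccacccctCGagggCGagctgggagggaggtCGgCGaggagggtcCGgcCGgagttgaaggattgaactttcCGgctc
VAT1L: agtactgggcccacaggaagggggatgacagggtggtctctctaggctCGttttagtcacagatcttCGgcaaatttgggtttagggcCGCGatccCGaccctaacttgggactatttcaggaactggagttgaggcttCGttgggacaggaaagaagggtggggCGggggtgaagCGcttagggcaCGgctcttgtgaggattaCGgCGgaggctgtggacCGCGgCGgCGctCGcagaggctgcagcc
CDO1: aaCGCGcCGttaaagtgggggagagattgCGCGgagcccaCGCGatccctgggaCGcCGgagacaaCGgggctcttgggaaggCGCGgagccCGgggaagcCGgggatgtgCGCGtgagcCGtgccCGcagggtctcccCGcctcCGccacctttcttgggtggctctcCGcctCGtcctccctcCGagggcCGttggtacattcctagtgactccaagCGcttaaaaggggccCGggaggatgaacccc
NXF3: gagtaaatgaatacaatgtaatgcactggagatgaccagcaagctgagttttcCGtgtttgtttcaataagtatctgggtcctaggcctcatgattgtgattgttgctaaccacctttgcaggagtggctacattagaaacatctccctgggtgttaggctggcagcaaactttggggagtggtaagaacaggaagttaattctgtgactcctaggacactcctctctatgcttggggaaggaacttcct
These stretches held 26 CpGs for ANOS1, 16 for VAT1L, 26 for CDO1 and 1 for NXF3. Over the window of 300 bases, 7 of the 8 members had more CpGs than the median of 14 over 35116 promoters, from 19 in VAT1L to 39 in CXCL12, and NXF3 had 3. CACGTG, read on both strands, was in 0 of the 8 windows and in 7.26% of all promoters, and TATAAA was in 0 of 8 and in 11.5%. GGGCGG was in 4 of 8 (UNC80, STAC, VAT1L and CXCL12) and in 45.0% of all promoters, and GGGG, which can share bases with it, was in 8 of 8 and in 89.6%. A match describes these letters and is not a binding site.

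Values are normalized counts, that is reads divided by a size factor of the library, and silent lines are given in reads. In these bulk samples fewer expressing cells and less RNA per cell cannot be told apart. ASTN1 had 3, 3 and 1 reads in MYC WT, 114, 125 and 112 normalized counts in MYC MUT and 0 reads in each SWP library. SYNDIG1 had 1, 1 and 2 reads in MYC WT, 69.3, 56.4 and 60.4 normalized counts in MYC MUT and 1, 0 and 0 reads in SWP. Both neuronal membrane genes were high in the 3 MYC MUT libraries and in no other.

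UNC80 had 3, 1 and 0 reads in MYC WT, 49.0, 69.0 and 63.3 normalized counts in MYC MUT and 0, 1 and 2 reads in SWP. STAC had 0, 1 and 3 reads in MYC WT, 98.9, 79.7 and 87.7 normalized counts in MYC MUT and 0, 1 and 0 reads in SWP. The lowest MYC MUT library of each channel-associated gene stood far above the highest library of the other lines.

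ANOS1 had the highest mean of the 7, with 117, 122 and 134 normalized counts in MYC MUT against 1, 2 and 1 reads in MYC WT. It was also the only one of the 7 with more than 3 reads in an SWP library, at 2, 5 and 2 reads. UGT2B4 had 0, 2 and 2 reads in MYC WT, 97.1, 121 and 85.7 normalized counts in MYC MUT and 0, 1 and 0 reads in SWP. The enzyme relative VAT1L, at 1, 0 and 3 reads in MYC WT, 87.8, 87.5 and 93.5 normalized counts in MYC MUT and 2, 3 and 1 reads in SWP, varied least of all members in its expressed line (coefficient of variation 3.78%).

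CDO1 had 146, 129 and 114 normalized counts in MYC WT, 3, 1 and 1 reads in MYC MUT and 108, 97.3 and 87.6 normalized counts in SWP. CXCL12 had 92.3, 155 and 151 normalized counts in MYC WT, the widest spread of any member (coefficient of variation 26.5%), 0, 3 and 2 reads in MYC MUT and 0 reads in every SWP library. NXF3 had 78.9, 97.7 and 120.3 normalized counts in MYC WT, 0, 1 and 2 reads in MYC MUT and 5.73, 10.4 and 12.7 normalized counts in SWP. SWP thus held the 3 genes in 3 states, with CDO1 at 75.4% of its MYC WT mean, CXCL12 without a read, and NXF3 between both other lines with no overlap.

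**Figure D1:**
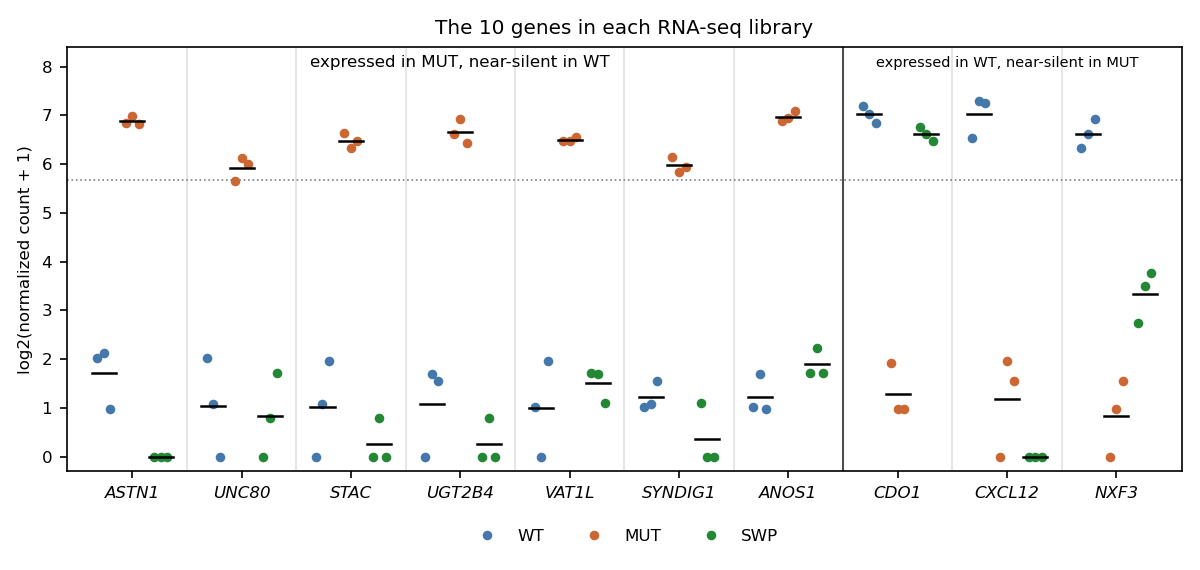
Level of the 10 genes as log2(normalized count + 1) (vertical axis) in each library of WT, MUT and SWP (3 points a line, bar at their mean); the dotted line marks 50 normalized counts. The 7 genes on the left are high in MUT alone, and of the 3 on the right CDO1 is high, CXCL12 at 0 and NXF3 in between in SWP.

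From summed reads, the expressed line stood 43.8-fold (UNC80) to 104-fold (NXF3) above the silent one. These ratios rest on 3 to 7 reads in the silent line, so their exact 95% counting intervals are wide: 16.8 to 162 for UNC80 and 35.2 to 507 for NXF3. All intervals and floors here cover counting error only. Even in the expressed line the members were low genes. Per kilobase of exon they had 3.08 (UNC80) to 68.3 (CDO1) normalized counts, where the median of tested genes was 252 in MYC WT and in MYC MUT alike.

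No member shared exon bases with another annotated gene. UGT2B4 has near-identical relatives, so the assignment of its reads is uncertain, and UGT2B7, UGT2B10, UGT2B11, UGT2B15, UGT2B17 and UGT2B28 each had a mean under 1 normalized count in every line. The pseudogene UGT2A3P7, within the UGT2B4 gene, had 0 reads in MYC WT and SWP and 2.77, 3.89 and 4.87 normalized counts in MYC MUT.

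How many genes behave in this way was counted at fixed limits, at most 3 reads in each library of the silent line and at least 50 normalized counts in each library of the expressed line. Expressed in MYC MUT and silent in MYC WT were 7 genes, 6 members and PCDHAC1. The reverse held for 3, which are CDO1, CXCL12 and NXF3. PCDHAC1, a clustered protocadherin whose exons are shared with other genes of its cluster and whose count is therefore uncertain, had 63.8, 61.2 and 53.6 normalized counts in MYC MUT, 2.05, 0 and 0.963 in MYC WT and 1.15, 0.743 and 0 in SWP. UNC80 fell just outside the limits with 49.0 in its lowest MYC MUT library, and SYNDIG1 was just inside with 56.4. With the same limits 37 genes were expressed in MYC MUT and silent in SWP (5 of them members), and 8 were expressed in MYC WT and silent in SWP (CXCL12 among them). Only 1 was expressed in SWP and silent in MYC WT, and 2, with CDO1 among them, were expressed in SWP and silent in MYC MUT.

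The SWP libraries had no part in choosing the members, although the MYC WT and MYC MUT libraries set against them did. SWP was compared with each by limma over 20884 genes, and a gene was called when its adjusted p was below 0.05 and its log2 fold change lay beyond 0.5. Against MYC WT, 3 of 10 members were called, all lower in SWP, where 5.13% of tested genes were called (2.98% lower and 2.15% higher). The libraries of SWP and MYC WT did not overlap for ASTN1, ANOS1, CDO1, CXCL12 and NXF3, as for 24.6% of tested genes. All 10 members had passed the minimum mean of 10 through the line in which they were high. These counts, and the p-values of single members, therefore describe the members and are no support.

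CXCL12 was 136-fold lower in SWP than in MYC WT when SWP, with 0 reads, was set at a floor of 3 reads over its libraries (limma adjusted p = 6.30e-06). NXF3 was 10.2-fold lower (counting interval 7.01 to 15.4), at 9.70% of its MYC WT mean (log2 fold change -3.28, SE 0.42, limma adjusted p = 0.000589). ASTN1 was called lower on 7 reads in MYC WT against 0 in SWP, 2.48-fold with SWP at that floor (limma adjusted p = 0.012). That call was lost with a pseudocount of 10 in place of 1 (limma adjusted p = 0.235).

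CDO1 in SWP stood at 75.4% of its MYC WT mean, below every MYC WT library, and was not called (log2 fold change -0.40, SE 0.27, limma adjusted p = 0.417). From summed reads CDO1 was 1.32-fold lower in SWP, with a counting interval of 1.13 to 1.55 that leaves out 1. The remaining 6 genes were not called and had 1 to 9 summed reads in MYC WT and in SWP, so that the intervals of their ratios are wide. UNC80 had 4 reads in MYC WT and 3 in SWP, a ratio of 1.42 (0.240 to 9.67). STAC, UGT2B4 and SYNDIG1 each had 4 reads against 1, a ratio of 4.25 (0.420 to 209). VAT1L had 6 reads in SWP against 4 in MYC WT, a ratio of 1.41 (0.335 to 6.80), and ANOS1 had 9 against 4, a ratio of 2.12 (0.591 to 9.41). Without MYC WT replicate 1, UGT2B4 was called lower in SWP (limma adjusted p = 0.0493).

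**Figure D2:**
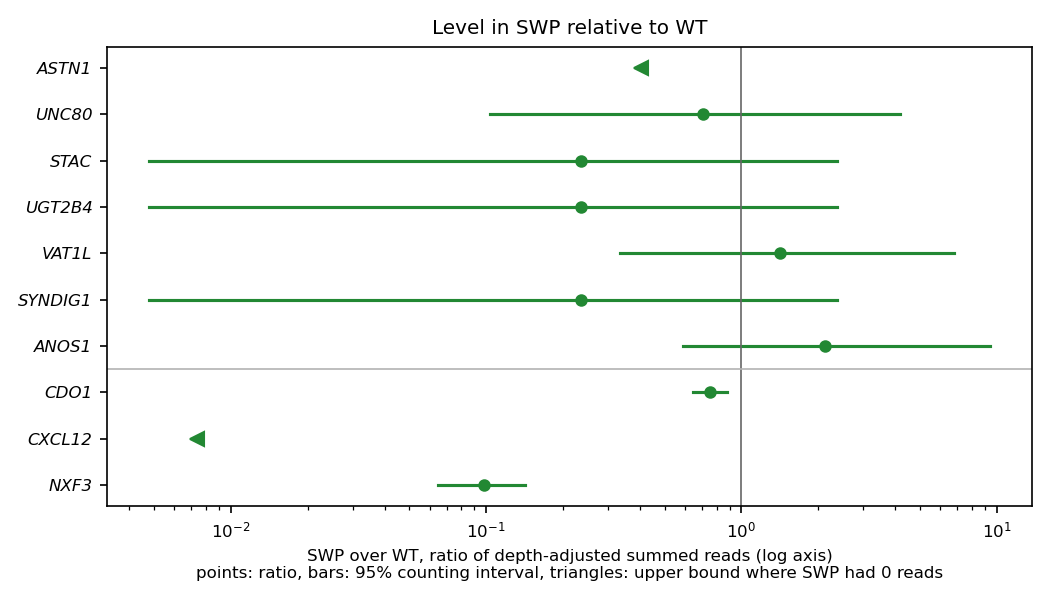
Ratio of SWP to WT for each gene from depth-adjusted summed reads of 3 libraries a line (horizontal log axis). Points are ratios and bars 95% counting intervals. Triangles, labelled as upper bounds, are ratios with SWP set at 3 reads where it had 0. The bars of UNC80, STAC, UGT2B4, VAT1L, SYNDIG1 and ANOS1 include 1, while CXCL12 and NXF3 lie farthest below it among genes with at least 100 reads in WT. The bar of CDO1 also lies below 1.

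Against MYC MUT, 9 of 10 members were called in SWP, where 20.6% of tested genes were called. The MYC MUT values helped to choose the members, so these counts and p-values too are a description and no support. The 7 genes expressed in MYC MUT were lower (12.3% of tested genes were lower) and CDO1 and NXF3 were higher (8.31% were higher). Between these lines 9 members did not overlap, as for 52.3% of tested genes. STAC was 274-fold lower in SWP on 1 SWP read (48.9 to 10879), and ASTN1 120.3-fold lower with its 0 SWP reads set at 3. ANOS1, at 42.6-fold (22.2 to 93.9), and VAT1L, at 46.1-fold (20.9 to 127), had the smallest of these ratios. CDO1 was 61.2-fold higher in SWP (25.9 to 189.8; limma adjusted p = 1.49e-07) and NXF3 10.2-fold higher (3.16 to 52.1; limma adjusted p = 0.000826). For MYC MUT against MYC WT, whose values chose the members, no count of members is given; of all tested genes 21.4% were called (11.3% higher and 10.1% lower) and 52.3% did not overlap.

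CXCL12 was not called between SWP and MYC MUT, at 0 against 5 reads (log2 fold change -1.18, SE 0.49, limma adjusted p = 0.0779). With SWP set at 3 reads the ratio was 1.64, which leaves out the counting error of the 5 reads. It was called lower in SWP with the replicate number as a block (limma adjusted p = 0.0414), without MYC MUT replicate 1 (0.00578) and with a pseudocount of 0.1 (0.0417). With 3 libraries a line the exact two-sided permutation p of one gene cannot fall below 0.1.

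Genes that work with the members were followed through a list of 45 receptors, subunits, enzymes and relatives, of which 28 were tested. Between MYC MUT and MYC WT, 11 of these were called, 5 higher and 6 lower, where 21.4% of tested genes were called, and their median log2 fold change was -0.03 against -0.00 over all genes. SWP against MYC WT gave 4 calls (1 higher and 3 lower), where 5.13% of tested genes were called, and SWP against MYC MUT gave 9 (4 higher and 5 lower), where 20.6% were. The list was made with earlier results of these data known. Its counts, here and for the partners of single members below, therefore describe the listed genes and are no support. NALF1, called between MYC MUT and each other line, passed the minimum mean through MYC MUT alone.

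The 2 largest increases in MYC MUT were partners of UNC80. NALCN, the pore of the sodium leak channel, had 29.7, 52.8 and 51.0 normalized counts in MYC WT, 218, 235 and 283 in MYC MUT and 21.8, 43.8 and 47.3 in SWP. The MYC MUT libraries stood apart (log2 fold change 2.47 against MYC WT, SE 0.30, limma adjusted p = 0.0001), and SWP overlapped MYC WT. NALF1, an auxiliary protein of the channel, had 0, 2.24 and 0 in MYC WT, 49.9, 46.7 and 42.9 in MYC MUT and 2.29, 0 and 0 in SWP. It was 67.6-fold higher in MYC MUT than MYC WT from 146 against 2 reads (counting interval 18.4 to 564; limma adjusted p = 7.50e-05). NALF1 passed the minimum mean of 10 through MYC MUT alone, so its p-value is a description and no support. UNC79, which joins UNC80 in the complex, was not called in any contrast, at 39.9 ± 7.08, 47.3 ± 9.71 and 36.3 ± 11.2 (SD, n = 3) in MYC WT, MYC MUT and SWP. NALF2 was called between SWP and MYC MUT alone (log2 fold change 0.56, SE 0.13, limma adjusted p = 0.00492), and the fold change fell short of 0.5 without MYC MUT replicate 2 (0.48) or SWP replicate 1 (0.47).

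The 3 tested partners of STAC were all called between MYC MUT and MYC WT, 1 higher and 2 lower, where 21.4% of tested genes were called. CACNA1C, the pore of an L-type calcium channel, had 144, 163 and 113 normalized counts in MYC WT, 271, 281 and 252 in MYC MUT and 88.2, 111 and 111 in SWP, and rose in MYC MUT (log2 fold change 0.95, SE 0.16, limma adjusted p = 0.000861). The relatives of STAC went the other way. In MYC MUT STAC2 fell by 0.79 (log2) (SE 0.20, limma adjusted p = 0.00905) and by 1.08 in SWP (SE 0.20, limma adjusted p = 0.00561). STAC3 fell by 0.87 in MYC MUT (SE 0.15, limma adjusted p = 0.000835) and had 85.6 ± 7.03 in SWP against 104 ± 8.30 in MYC WT (SD, n = 3).

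CXCR4, the receptor of CXCL12, had 216, 173 and 184 normalized counts in MYC WT, 714, 855 and 821 in MYC MUT and 375, 553 and 494 in SWP, and no line overlapped another. It was higher in both lines in which CXCL12 had few or no reads, by a log2 fold change of 2.06 in MYC MUT (SE 0.15, limma adjusted p = 3.52e-06) and 1.29 in SWP (SE 0.15, limma adjusted p = 0.00029). These comparisons share the MYC WT libraries. DPP4, a protease that cleaves CXCL12, had 143 ± 31.9 in SWP against 269 ± 53.8 in MYC WT (SD, n = 3; log2 fold change -0.91, limma adjusted p = 0.00926) and 244 ± 6.20 in MYC MUT. ACKR3, another receptor of CXCL12, was below the minimum mean.

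Of the 8 listed genes around CDO1, all in or next to cysteine metabolism, 4 fell in MYC MUT against MYC WT and 0 rose, where 10.1% of tested genes were called lower and 11.3% higher. Of the 4, CBS kept its call with each library left out, and CTH, SLC7A11 and SLC6A6 did not. CTH, which makes cysteine from cystathionine, had 1851, 7482 and 6130.3 normalized counts in MYC WT, 818, 1313 and 1500.2 in MYC MUT and 1867, 4588 and 4873 in SWP. The cystine importer SLC7A11 had 3330.4, 10109 and 8521 in MYC WT, 1270.1, 2369 and 3277 in MYC MUT and 3343, 5925 and 7225 in SWP. For both, the library numbered 1 was the lowest of every line. In MYC MUT CTH fell by 1.91 (log2) (SE 0.49, limma adjusted p = 0.0106), a call lost without MYC WT replicate 3 (0.0511). SLC7A11 fell by 1.62 (SE 0.44, limma adjusted p = 0.0129), a call lost without MYC MUT replicate 1 (0.0569), MYC WT replicate 2 (0.0553) or MYC WT replicate 3 (0.0582). In SWP against MYC MUT, CTH was called higher by 1.56 (SE 0.49, limma adjusted p = 0.0274) and SLC7A11 by 1.29 (SE 0.44, limma adjusted p = 0.0373). The call of CTH was lost in 5 of 20 alternatives and that of SLC7A11 in 6. CBS, the enzyme before CTH, fell by 0.66 in MYC MUT (SE 0.11, limma adjusted p = 0.000705) and by 0.81 in SWP (SE 0.11, limma adjusted p = 0.000741). The taurine transporter SLC6A6 fell by 0.53 in MYC MUT (SE 0.13, limma adjusted p = 0.00908), and its fold change was within 0.5 without MYC WT replicate 2 (-0.45) and with values rescaled to equal totals (-0.46). ADO, CSAD, GOT1 and GCLC were not called in any contrast.

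**Figure D3:**
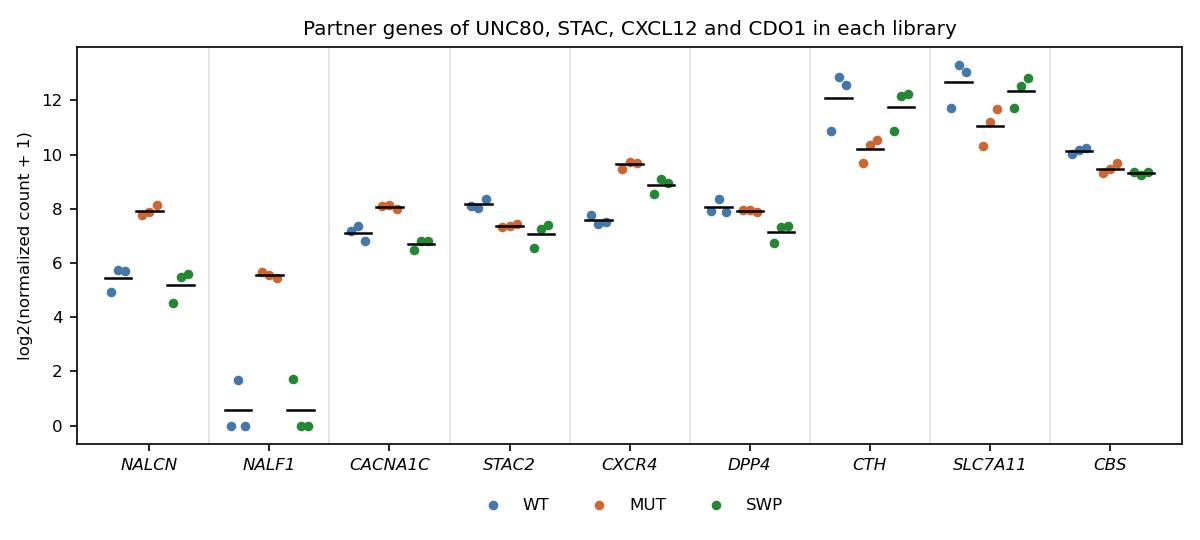
Level of 9 partner genes as log2(normalized count + 1) (vertical axis) in each library of WT, MUT and SWP (3 points a line, bar at their mean). NALCN, NALF1 and CACNA1C are highest in MUT, CXCR4 separates all 3 lines, and CTH and SLC7A11 spread widely within WT and SWP.

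The partners of the other members moved less. HS6ST1, a heparan sulfate sulfotransferase listed with ANOS1, was called higher in MYC MUT (log2 fold change 0.50, SE 0.10, limma adjusted p = 0.0031), and its fold change was below 0.5 without MYC MUT replicate 3 (0.48), MYC WT replicate 2 (0.43) or MYC WT replicate 3 (0.45). ASTN2, UGDH, VAT1, CRYZ, PRRT1, FGFR1, FGF8, NXF1, NXT1 and NXT2 were not called in any contrast. NXF1 was near the limit in MYC MUT against MYC WT (log2 fold change 0.51, SE 0.19, limma adjusted p = 0.0528) and was called there in 6 of 20 alternatives, and VAT1 and NXT2 were each called there in 1. The AMPA receptor subunits GRIA1, GRIA2, GRIA3 and GRIA4, which SYNDIG1 works with, each had a mean under 2 normalized counts in every line. PROKR2, NXF2 and NXF2B had 0 reads in all libraries.

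Of the 20 nearest protein-coding genes on either side of the members, 8 were tested. Between MYC MUT and MYC WT 1 of the 8 was called, where 21.4% of tested genes were, and between SWP and MYC MUT 3 were (2 higher and 1 lower), where 20.6% were. The gene called in the first contrast was MAP2, a microtubule protein of neurons 37685 bases from UNC80, at 48.2, 51.6 and 55.8 normalized counts in MYC WT, 251, 212 and 189 in MYC MUT and 50.4, 39.4 and 42.7 in SWP (log2 fold change 2.04, SE 0.17, limma adjusted p = 7.44e-06). RPE, 3265 bases from the other end of UNC80, had 5514 ± 643, 5717 ± 462 and 5566 ± 309 (SD, n = 3) in MYC WT, MYC MUT and SWP. BEX4, a neighbour of NXF3, was higher in SWP than in MYC MUT (log2 fold change 0.76, SE 0.08, limma adjusted p = 2.45e-05). BEX1, the other neighbour of NXF3, was called in that contrast with overlapping libraries (log2 fold change 0.87, SE 0.31, limma adjusted p = 0.0451), and the call was lost in 10 alternatives. BRINP2, 5985 bases from ASTN1 and below the minimum mean, had 1.03, 1.12 and 0.963 in MYC WT, 11.1, 15.6 and 14.6 in MYC MUT and 1.15, 0.743 and 0 in SWP.

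Within 5 Mb of each member, 29 (ANOS1) to 84 (NXF3) other genes were tested. Between 15.4% (UGT2B4) and 27.6% (ANOS1) of them were called in MYC MUT against MYC WT, on either side of the 21.4% over all tested genes, and their median log2 fold changes ran from -0.14 to 0.23. Around NXF3, 33 of 84 (39.3%) were called in SWP against MYC MUT, 23 of them higher, where 20.6% of tested genes were called. Around the other 9 members that share was 10.3% to 24.5%.

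Window genes called beyond a log2 fold change of 2 between MYC MUT and MYC WT were singled out after their values were seen and are given without a test. They were 13 of 553 (2.35%), where 1.83% of all tested genes were that far out. Around ANOS1 they were 4 of 29 tested genes (13.8%), and around each other member 0% to 4.35%. SHROOM2, 1.05 Mb away, had 61.5, 94.3 and 55.8 normalized counts in MYC WT, 1216, 1197 and 1298 in MYC MUT and 13.7, 43.1 and 50.7 in SWP. WWC3, 1.28 Mb away, had 3.08, 11.2 and 6.74 in MYC WT, 345, 295 and 298 in MYC MUT and 1.15, 1.49 and 0 in SWP. CLCN4, 1.42 Mb away and encoding a chloride-proton exchanger, had 13.3, 23.6 and 20.2 in MYC WT, 471, 462 and 508 in MYC MUT and 22.9, 17.1 and 19.6 in SWP. All of these were, like ANOS1, highest in the MYC MUT libraries. Unlike ANOS1, SHROOM2 also had 55.8 to 94.3 normalized counts in MYC WT, so it was not expressed in MYC MUT alone. ARHGAP6, 2.93 Mb away, was highest in MYC MUT too, at 42.9 ± 6.94 against 1.36 ± 0.494 in MYC WT and 3.42 ± 1.18 in SWP (SD, n = 3).

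Near SYNDIG1, the transcription factor gene PAX1 had 66.5 ± 16.3 in MYC WT, 282 ± 15.1 in MYC MUT and 7.35 ± 1.69 in SWP (SD, n = 3), so that SWP was lowest. FOXA2, also near SYNDIG1 and encoding a transcription factor of endoderm, had 8.03 ± 4.67, 38.9 ± 4.19 and 0.248 ± 0.429 in the same order (SD, n = 3). Near CDO1, the potassium channel gene KCNN2 went against CDO1, with 37.4 ± 5.30, 348 ± 16.9 and 9.78 ± 4.31 (SD, n = 3). ERBB4, 2.77 Mb from UNC80, had 35.2 ± 16.3, 331 ± 38.8 and 167 ± 25.9 (SD, n = 3), higher in both edited lines. The rest were MAP2 near UNC80, ZNF648 and ENSG00000224810 near ASTN1 and CDYL2 near VAT1L, all higher in MYC MUT, and TSC22D3 near NXF3, lower there. There was no such gene around STAC, UGT2B4 or CXCL12.

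**Figure D4:**
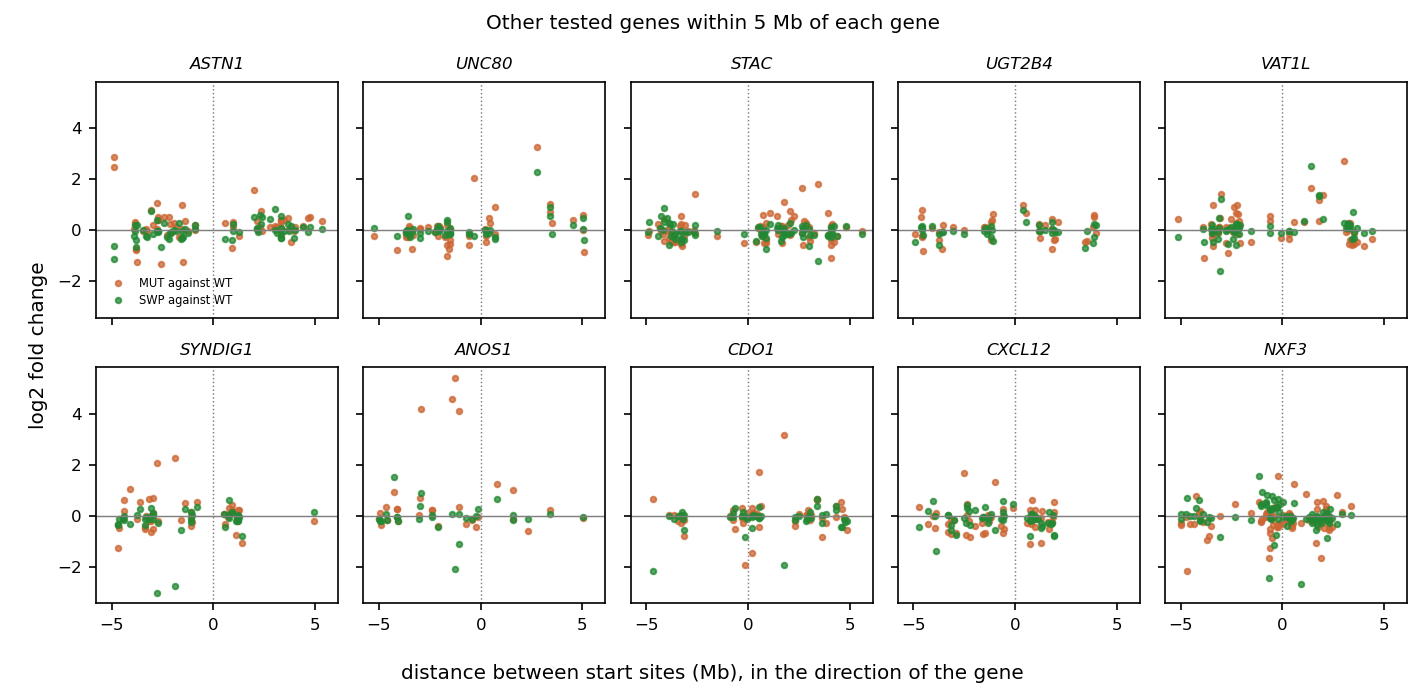
Log2 fold change (vertical axis) of the other tested genes within 5 Mb of each of the 10 genes, against the distance between start sites in Mb in the direction of the gene (horizontal axis); orange, MUT against WT; green, SWP against WT. In the ANOS1 panel 4 orange points above 4 stand upstream of the gene, at 1.05 to 2.93 Mb.

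The genes most alike to each member over the 9 libraries were found by Pearson's r of log2(normalized count + 1) among 16868 genes with a mean of at least 50. The points share 3 lines, so r mostly records how the lines are ordered, not the size of a change, and is a description. CXCL12 had the fewest genes at r over 0.95, 16, led by LINC01419 (r = 0.991) with 228 ± 77.8, 17.0 ± 7.80 and 6.82 ± 2.28 normalized counts in MYC WT, MYC MUT and SWP (SD, n = 3). NXF3 had 84 such genes, and ICAM4 (r = 0.991) had 132 ± 10.4, 10.9 ± 2.27 and 34.9 ± 12.5 (SD, n = 3), again with SWP in between. CDO1 had 578, among them CDK8 (r = 0.997) at 2969 ± 117, 1654 ± 84.3 and 2849 ± 109 (SD, n = 3). For the genes expressed in MYC MUT the number ran from 217 (UNC80) to 413 (SYNDIG1). Most alike to VAT1L was TINF2 (r = 0.992), an abundant gene with a graded change, at 2429 ± 191, 3700 ± 47.0 and 2602 ± 115 (SD, n = 3). The genes most alike to STAC (EDEM2), SYNDIG1 (FBXO38) and NXF3 (RPL23AP2) were likewise abundant and graded. ATP2B3, a plasma membrane calcium pump, came second for VAT1L (r = 0.992) at 7.35 ± 4.48, 222 ± 12.8 and 11.0 ± 0.624 (SD, n = 3). PCDHA10, a clustered protocadherin, went with ANOS1 (r = 0.993), and C2CD4C went with UGT2B4 (r = 0.997) at 88.9 ± 20.2, 534 ± 47.2 and 67.1 ± 3.70 (SD, n = 3).

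Several members are known from other tissues, so markers of other cell types were read in the same libraries. The 3 neuron markers RBFOX3, SYT1 and SNAP25 summed to 614 to 806 normalized counts in MYC WT, 1063 to 1134 in MYC MUT and 742 to 795 in SWP. SYT1 made up most of each sum, at 634 ± 97.6, 801 ± 26.6 and 720 ± 23.6 (SD, n = 3), and was not called in any contrast. RBFOX3 had 48.8 ± 14.1, 114 ± 1.51 and 50.5 ± 6.84 (SD, n = 3). SNAP25, a protein of synaptic release, had 5.18 ± 0.403 in MYC WT, 175 ± 16.4 in MYC MUT and 2.74 ± 3.00 in SWP (SD, n = 3), the same order as ASTN1 and SYNDIG1. SNAP25 was called higher in MYC MUT too, but passed the minimum mean through that line alone. The 4 fibroblast markers, of which COL1A1 made up nearly all, summed to 1068 to 1246, 1887 to 1986 and 779 to 1173. The part of the neuron and fibroblast markers in the values of the members was not tested. The 4 hepatocyte markers, read for UGT2B4, summed to 8.20 to 21.2, 10.2 to 16.6 and 9.17 to 19.3, with SERPINA1 at 0 in every library. Both endothelial markers had means under 3 in every line.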

How the data were processed

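The deposited RNA-seq values are a signal, gene counts that the authors had divided by size factors from DESeq2. Libraries were poly(A)-selected with a directional kit, and alignment to hg38 was by bwa mem (the submitters' processing notes list BWA 0.7.17-r2188 and cutadapt 1.18), a tool not made for spliced reads, so reads across junctions can be missed. The counting tool and its strand setting are not given in the sources used here. Whole reads were recovered from the steps of the values (100% whole within 0.001 reads). Symbols came from GENCODE, which matched 57754 of 58336 identifiers.

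All 9 libraries entered a limma 3.58.1 fit in R 4.3.3 (eBayes with trend) of log2(normalized count + 1) for 20884 genes whose mean was at least 10, with p-values adjusted by Benjamini and Hochberg. Calls took an adjusted p below 0.05 together with a log2 change over 0.5 in size. Such fold changes understate those of low genes and depend on the pseudocount where a line has few reads. Ratios of summed reads with exact intervals are therefore given. A line with 0 reads was set at 3, without an interval. Alternatives were count tests on the recovered reads (edgeR 4.0.16, DESeq2 1.42.0), further pseudocounts, filters, scalings and limits, and each library left out. The scripts were tested on simulated data.

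The members and gene lists were chosen with earlier results of these data known. Named genes are the members, the partners, nearest and overlapping genes, the 2 genes most alike to each member, genes at the on/off limits, MYC and cell type markers; genes far out within 5 Mb of a member were added after their values were seen. Replicate numbers from the labels were taken to pair libraries where deviations from the line means correlated over 0.1 for every number. They did for SWP with MYC WT (0.102 to 0.555) and with MYC MUT (0.232 to 0.333), and not for MYC MUT with MYC WT (0.049 for replicate 3). Other assays were not analysed here, and 1 list of cell type markers is not reported here.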

Additional observations from a re-analysis of the deposited data

How the results depend on the processing

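The members called lower in SWP than MYC WT (3 of 10) became 0 of 1 tested with a minimum mean of 50, and the 9 called between SWP and MYC MUT became 1 of 1, since the filter removed the other members; leaving out each library gave 3 to 4 and 9 to 10. With the adjusted p alone, partner calls were 17 (MYC MUT against MYC WT) and 14 (SWP against MYC MUT), and with a log2 fold change beyond 1 they were 5, 2 (SWP against MYC WT) and 5; leaving out a library gave 8 to 13, 4 to 5 and 6 to 9. Neighbour calls between MYC MUT and MYC WT were 2 with any count tested and 4 with the adjusted p alone (1 to 2 with a library left out). Between SWP and MYC WT, where 0 of 8 were called by limma, there was 1 on equal totals, with edgeR, with DESeq2 and with the adjusted p alone (0 to 1 with a library left out), the gene being BEX4. Between SWP and MYC MUT they were 5 with any count or the adjusted p alone and 1 beyond a log2 fold change of 1 (2 to 3 with a library left out).

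The number of on/off genes followed its limits. In the order silent at most 10 normalized counts, silent at 0 reads, expressed at least 20 and expressed at least 100, it was 20, 0, 26 and 2 for MYC MUT over MYC WT. It was 12, 0, 6 and 1 for MYC WT over MYC MUT (3 to 5 with a library left out), 20, 5, 23 and 1 for MYC WT over SWP (8 to 11), 9, 1, 6 and 1 for SWP over MYC MUT (2 to 4) and 73, 5, 71 and 20 for MYC MUT over SWP (38 to 45). For SWP over MYC WT it was 2 with silent at most 10 and 3 with expressed at least 20 (1 to 2 with a library left out).

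With the replicate block, CXCL12 was called between SWP and MYC MUT (log2 fold change -1.18, limma adjusted p = 0.0414) and no other call of a member, partner or neighbour in the SWP contrasts changed. Replicate numbers did not pair MYC MUT with MYC WT, where NXF1 alone became called with the block (log2 fold change 0.51, limma adjusted p = 0.000841), as it did on equal totals, with only both lines in the fit, and without MYC WT replicate 1, SWP replicate 1 or SWP replicate 2. Ratios resting on 1 to 9 reads are limited by depth.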
